A study of Mus musculus with 90 samples.

Results

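Pericentral hepatocytes surround the central vein of each liver lobule, and the 10 genes described here are genes of these cells whose expression depends on Wnt signalling: Glul, Oat, Cyp2e1, Cyp1a2, Slc1a2, Lgr5, Axin2, Tbx3, Rnf43 and Rhbg. They were chosen by name, and their rows were found by matching the Ensembl identifiers of the count tables to gene symbols. Of the 10 genes, 9 had a row among the 27654 genes of the tables, of which 27244 matched a symbol, and Rhbg, an ammonium transporter, was not analysed here. Endothelial cells of the central vein release Wnt ligands and R-spondins, which reach the nearest hepatocytes. There, Wnt bound to Frizzled receptors and LRP co-receptors keeps beta-catenin from being degraded, and beta-catenin with TCF factors turns on target genes. Pericentral hepatocytes capture leftover ammonia as glutamine and oxidise drugs and other foreign compounds, whereas periportal hepatocytes at the other end of the lobule make urea and glucose.

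The series measured poly(A) RNA of whole mouse liver in 90 libraries, each from a single male mouse of strain C57BL/6J kept on chow and 12 weeks old at the start. It addresses how the hepatic glucocorticoid receptor (GR, encoded by Nr3c1), the nuclear receptor that binds corticosterone, takes part in the response to caloric restriction across the day. Time is Zeitgeber time (ZT), with lights on at ZT0 and off at ZT12. Caloric restriction (cal. res.) lowered the daily ration stepwise to 40% fewer calories, given at ZT12, and the control mice of the time series (ctrl.) are labelled night-restricted. The time series holds livers of mice with floxed GR alleles and no Cre (GRfl/fl, called WT here) and of GRLKO mice (GRfl/fl x Alb-Cre), in which the albumin promoter drives Cre and so deletes GR in hepatocytes. The study calls them hepatocyte-specific knockouts, and GR in other liver cells was not measured apart here. On cal. res. it has 3 libraries per genotype at each of 6 time points, 4 h apart from ZT0 to ZT20, 36 in all, and on ctrl. it has 3 or 4 per group, 42 in all. A separate diet experiment has 3 restricted and 3 control mice at ZT12, labelled genotype WT. The titles of its controls say AL while their treatment label says NR. By the study's methods, control mice of the diet protocol ate ad libitum and were night-restricted only for the final 7 days. A separate corticosterone experiment has 3 mice labelled genotype WT at ZT12 given CORT at 5 mg per kg into the peritoneum each day for 7 days and 3 controls labelled night-restricted, which by the study's methods received the vehicle. These 4 sets of libraries have a count table each. The time-series diets therefore differ in their library series too, and levels are set against each other across diets within the diet experiment or as a difference of genotype effects, with the time-series WT libraries taken at ZT12 given beside the diet experiment as an alternative only.

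Library totals were 14235473 to 20788575 counts (median 17386700) in the restricted time series, 10057544 to 17089004 counts (median 13427104) in the control time series, 36442195 to 39492146 counts (median 37407547) in the diet experiment and 13739631 to 16077943 counts (median 14431389) in the corticosterone experiment. Levels are given as CPM, counts scaled by the library total and TMM factors, and their error is the spread between mice. Nr3c1 (ENSMUSG00000024431), the deleted gene, served as the check of the genotype labels. On cal. res. it ranged over 70.1 to 113 CPM (median 93.8) in 18 WT libraries and 21.4 to 32.1 CPM (median 24.9) in 18 GRLKO libraries. On ctrl. it ranged over 73.0 to 118 CPM (median 87.2) in 22 WT and 16.2 to 29.0 CPM (median 21.5) in 20 GRLKO libraries. No GRLKO library reached any WT library of the time series, and the ratio of group means lay between 0.249 and 0.308 at the 6 time points on cal. res. and between 0.239 and 0.284 on ctrl. Over the day its log2 fold change was -1.84 (95% CI -1.92 to -1.77, adjusted p = 4.86e-28) on cal. res. and -1.97 (95% CI -2.06 to -1.87, adjusted p = 9.47e-30) on ctrl. In the diet experiment Nr3c1 stood at 88.7, 90.3 and 95.7 CPM in controls and 84.3, 88.4 and 86.6 CPM in restricted mice, all 3 lower but not called (adjusted p = 0.317). In the corticosterone experiment it stood at 74.1, 77.4 and 69.4 CPM in controls and 61.6, 83.8 and 65.9 CPM under CORT (adjusted p = 0.808). In whole liver, fewer pericentral cells and less RNA of a gene per cell cannot be told apart.

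The label liver was checked on 7 hepatocyte markers, whose sum ranged over 69240 to 174800 CPM in all 90 libraries, with Alb as the most abundant and none at 0. Levels of other cell types are given for the 22 WT libraries on ctrl. The 6 markers of central vein endothelium summed to 7.98 to 20.5 CPM (median 14.9), Rspo3 being the most abundant at a mean of 4.26 CPM, and the 6 of sinusoidal endothelium summed to 73.7 to 182 CPM (median 132), Clec4g being the most abundant at a mean of 36.7 CPM. The 8 of Kupffer and myeloid cells summed to 41.0 to 205 CPM (median 112), Clec4f being the most abundant at a mean of 37.9 CPM, and the 6 of stellate cells summed to 88.6 to 380.3 CPM (median 185), Dcn being the most abundant at a mean of 103 CPM. These are the resident macrophages and the vitamin A storing cells of the liver. The 5 of cholangiocytes, the bile duct cells, summed to 22.6 to 85.8 CPM (median 41.3), Spp1 being the most abundant at a mean of 35.8 CPM, and 1 was at 0. The 6 of lymphocytes summed to 2.89 to 22.1 CPM (median 6.14), Ptprc being the most abundant at a mean of 5.36 CPM, the 5 of neutrophils summed to 0.319 to 3.77 CPM (median 1.53), Csf3r being the most abundant at a mean of 1.23 CPM, of which 1 was at 0, and the 6 of erythrocytes summed to 284 to 1548 CPM (median 528), Hbb-bs being the most abundant at a mean of 216 CPM. No marker of the other lists was at 0 in this set.

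The level of each member, divided by the summed length of its exons so that genes can be set beside each other, is given for the same 22 libraries. Cyp2e1 (ENSMUSG00000025479, chr7:140763739-140774987), the cytochrome P450 that oxidises ethanol and acetaminophen, was the most abundant, with 1280 to 4130 CPM per kb (median 2990). Oat (ENSMUSG00000030934, chr7:132557478-132576398), the ornithine aminotransferase of mitochondria, followed with 256 to 677 CPM per kb (median 421), and Glul (ENSMUSG00000026473, chr1:153899944-153909723), glutamine synthetase, with 107 to 376 CPM per kb (median 287). Cyp1a2 (ENSMUSG00000032310, chr9:57676937-57683703), the cytochrome P450 that oxidises caffeine, had 103 to 422 CPM per kb (median 263). Every Cyp2e1 value was above every value of the other members, whereas Oat, Glul and Cyp1a2 overlapped as neighbours in this order. Slc1a2 (ENSMUSG00000005089, chr2:102658659-102790784), a glutamate transporter of the plasma membrane, had 6.54 to 23.8 CPM per kb (median 13.9), below every Cyp1a2 value. The regulators came last: Tbx3 (ENSMUSG00000018604, chr5:119670669-119684724), a T-box transcription factor, had 2.04 to 8.04 CPM per kb (median 4.68), and Rnf43 (ENSMUSG00000034177, chr11:87662722-87735539), a ubiquitin ligase that removes Frizzled receptors, had 2.08 to 6.84 CPM per kb (median 4.00). Axin2 (ENSMUSG00000000142, chr11:108920349-108950783), a scaffold of the beta-catenin destruction complex and itself a Wnt target, had 0.754 to 2.36 CPM per kb (median 1.64), and Lgr5 (ENSMUSG00000020140, chr10:115450311-115587780), an R-spondin receptor, had 0.241 to 1.16 CPM per kb (median 0.7). From Slc1a2 down to Lgr5 each gene overlapped its neighbour in these libraries. In the other 3 time-series sets the order of the medians was the same except that Rnf43 stood above Tbx3. Positions are those of GENCODE for GRCm38.

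The diet experiment asks which of these genes differ between restricted and control livers at ZT12. Cyp1a2 and Glul fell and Axin2 rose with restriction. These 3 of the 9 genes were called, meaning an adjusted p below 0.05 in edgeR over the 13062 genes tested, beside 47.1% of all genes. In that comparison 1 member rose beside 23.5% of all genes, and 2 fell beside 23.6%. DESeq2 called 4 of 9, and the share of members was not tested against that of all genes. The median log2 fold change of the 9 was -0.28, and that of all genes tested was 0.00.

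Cyp1a2 stood at 299, 338 and 364 CPM in the 3 control libraries and at 147, 81.7 and 63.4 CPM in the 3 restricted libraries. Every restricted library was below every control library, and restricted replicate 1 was the highest of its group. Its log2 fold change was -1.78 (95% CI -2.46 to -1.09, adjusted p = 0.00277), and the call held whichever library was left out. Glul stood at 798, 986 and 942 CPM in controls and 676, 745 and 561 CPM in restricted livers, again without overlap. The log2 fold change of Glul, -0.46 (95% CI -0.76 to -0.16, adjusted p = 0.0226), lost the call without control replicate 2 (-0.40, adjusted p = 0.0799), without control replicate 3 (-0.43, adjusted p = 0.0644) or without restricted replicate 3 (-0.35, adjusted p = 0.0615). Axin2 stood at 4.13, 5.21 and 5.32 CPM in controls and 7.63, 7.11 and 6.39 CPM in restricted livers, all 3 above all controls. The log2 fold change of Axin2, 0.53 (95% CI 0.20 to 0.86, adjusted p = 0.0185), was not called without control replicate 1 (0.42, adjusted p = 0.0525) or without restricted replicate 2 (0.52, adjusted p = 0.0594). Between the time-series WT libraries taken at ZT12, whose diets differ in library series, the Cyp1a2 change was -0.87 (adjusted p = 0.00711), while Glul (-0.06, adjusted p = 0.608) and Axin2 (0.62, adjusted p = 0.0558) were not called. The adjusted p over all alternatives was 2.38e-05 to 0.0149 for Cyp1a2, 0.0023 to 0.608 for Glul and 0.0121 to 0.0594 for Axin2.

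Among the genes not called, Rnf43 had 17.99, 17.9 and 17.5 CPM in controls and 15.6, 14.8 and 11.01 CPM in restricted livers. All 3 restricted values were lower, and the log2 fold change was -0.37 (95% CI -0.68 to -0.06, adjusted p = 0.0551). It was called without restricted replicate 1 (-0.45, adjusted p = 0.03) and with the replicate number as a block (-0.38, adjusted p = 0.048). Oat had 510.1, 905 and 891 CPM in controls and 417, 629 and 544 CPM in restricted livers, and control replicate 1 lay among the restricted values. The change of Oat was -0.54 (95% CI -1.10 to 0.03, adjusted p = 0.107) on the log2 scale, and it was called without that library (-0.76, adjusted p = 0.0196), in DESeq2 (-0.53, adjusted p = 0.0416) and with the block (-0.51, adjusted p = 0.0146). Slc1a2 had 169, 210.0 and 241 CPM in controls and 159, 185 and 165 CPM in restricted livers, which overlapped through control replicate 1 and restricted replicate 2. Its change of -0.28 (95% CI -0.60 to 0.03, adjusted p = 0.121) was called without control replicate 1 (-0.41, adjusted p = 0.0314). Cyp2e1 had 8828, 10629 and 8655 CPM in controls and 9963, 9026 and 6659.9 CPM in restricted livers, which overlapped (log2 fold change -0.13, 95% CI -0.50 to 0.24, adjusted p = 0.525). Lgr5 had 5.26, 6.02 and 3.45 CPM in controls and 5.70, 5.97 and 4.01 CPM in restricted livers (log2 fold change 0.09, 95% CI -0.47 to 0.66, adjusted p = 0.782), and Tbx3 had 9.50, 11.8 and 18.8 and 18.6, 16.5 and 12.1 CPM (log2 fold change 0.24, 95% CI -0.39 to 0.86, adjusted p = 0.498). Both overlapped between the groups. Between the time-series WT libraries taken at ZT12, 4 members had the other direction: Cyp2e1 was higher on cal. res. (0.69, adjusted p = 0.00095) and so was Slc1a2 (0.39, adjusted p = 0.0192), while Tbx3 (-0.33, adjusted p = 0.499) and Lgr5 (-0.17, adjusted p = 0.657) were lower and not called. The part of the library series in that was not tested. Over all alternatives the adjusted p lay at 0.03 to 0.165 for Rnf43, 0.0146 to 0.683 for Oat, 0.0192 to 0.344 for Slc1a2, 0.00095 to 0.897 for Cyp2e1, 0.0683 to 0.92 for Tbx3 and 0.438 to 0.976 for Lgr5.

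**Figure D1:**
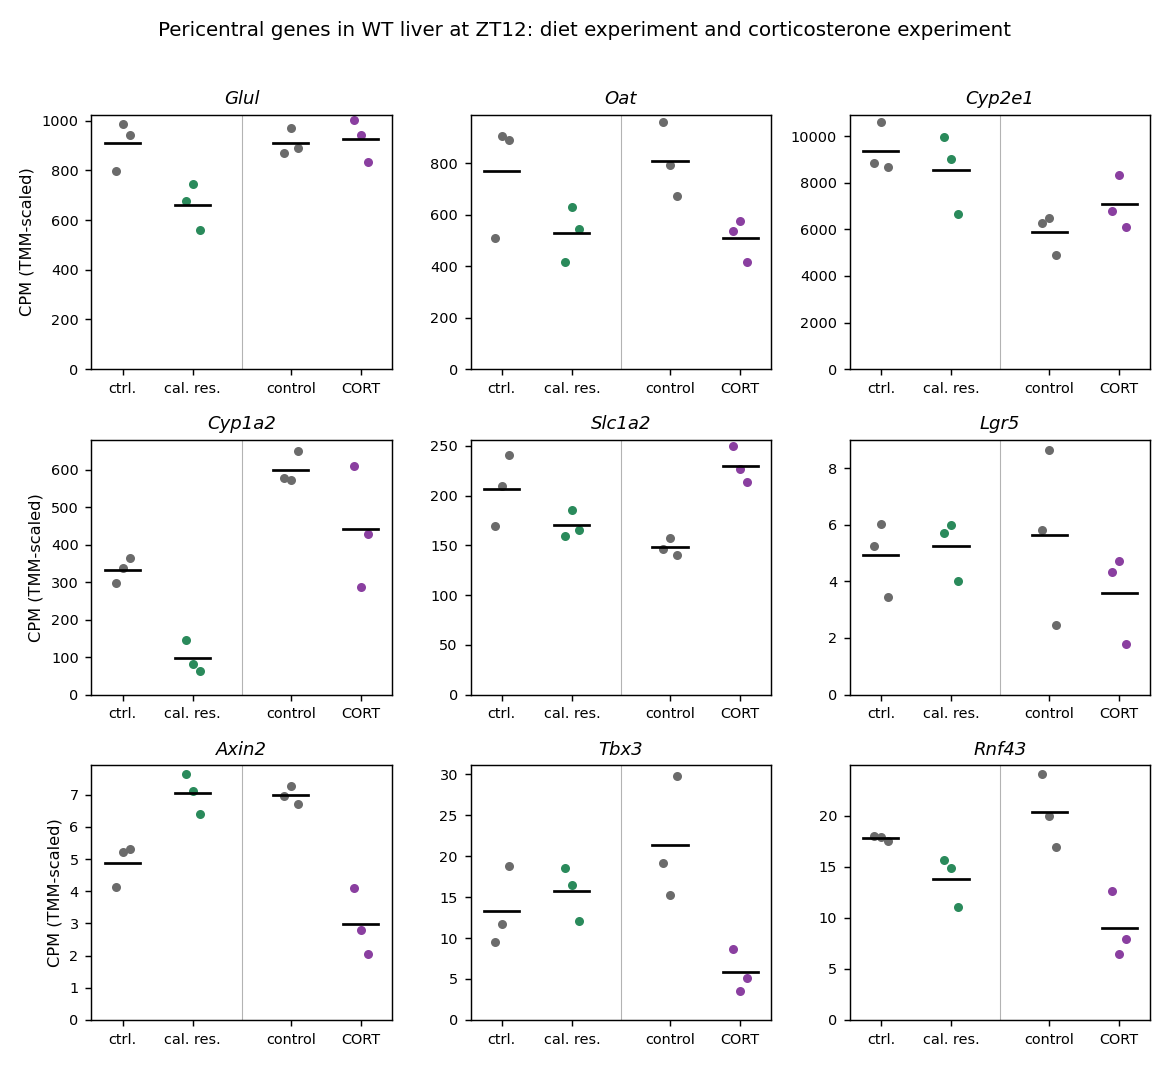
CPM of the 9 members (vertical axes, from 0) in the 6 libraries of the diet experiment (left of each panel) and the 6 libraries of the corticosterone experiment (right), all WT at ZT12, with points for single mice and bars for group means. The 3 restricted livers lie below the 3 controls for Cyp1a2, Glul and Rnf43 and above them for Axin2, and the 3 CORT livers lie below the 3 controls for Axin2, Tbx3, Rnf43 and Oat and above them for Slc1a2, of which Rnf43 in the diet experiment and Oat under CORT were not called. How many of all genes lie apart in this way was not counted.

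Fixed lists of related genes describe the rest of the zone and the Wnt pathway in the diet experiment. Each list gives its median log2 fold change and up to 3 called genes by name, those with the largest log2 fold changes, which stand with their adjusted p. Among other pericentral genes, 7 rose and 8 fell of 20 (median -0.03), with Cyp2c37 (a cytochrome P450 of the pericentral zone, 1.88, adjusted p = 0.000684), Avpr1a (a vasopressin receptor, 1.296, adjusted p = 0.000397) and Cyp7a1 (the rate-limiting enzyme of bile acid synthesis, -1.23, adjusted p = 0.00717) by name. Of periportal genes, 11 rose and 2 fell of 20 (median 0.40), with Pck1 (the gluconeogenic enzyme PEPCK, 1.43, adjusted p = 0.000237), Etnppl (a phosphoethanolamine lyase, 1.29, adjusted p = 0.000436) and Ass1 (argininosuccinate synthetase of the urea cycle, 1.27, adjusted p = 0.000787) by name. Rises thus outnumbered falls among the periportal genes and did not among the pericentral ones, a difference that was not tested. Among Wnt ligands, R-spondins and the factors that release them, 2 rose and 1 fell of 9 tested of 12 listed (median -0.06), with Porcn (the acyltransferase that makes Wnt ligands active, 1.14, adjusted p = 0.00432) and Wnt5b (-0.48, adjusted p = 0.00918) by name. Of Wnt receptors and their regulators, 5 rose and 3 fell of 11 tested of 12 listed (median 0.53), with Fzd8 (-1.54, adjusted p = 0.00219), Znrf3 (the relative of Rnf43 that removes Frizzled, 1.08, adjusted p = 0.000514) and Fzd6 (-0.84, adjusted p = 0.0145) by name. In the beta-catenin destruction complex and its partners, 11 rose and 1 fell of 15 (median 0.41), with Btrc (the F-box protein that marks beta-catenin for degradation, -0.83, adjusted p = 0.00105), Apc (a scaffold of the destruction complex, 0.73, adjusted p = 0.00342) and Csnk1e (a casein kinase, 0.70, adjusted p = 0.0044) by name. The kinases and scaffolds of that complex hold beta-catenin down when no Wnt is bound. Among TCF factors and their coactivators, 2 rose and 1 fell of 9 tested of 10 listed (median 0.05), with Hnf4a (a nuclear receptor of hepatocytes, 0.69, adjusted p = 0.0109), Bcl9 (-0.69, adjusted p = 0.00403) and Pygo2 (0.50, adjusted p = 0.0136) by name. Of Wnt inhibitors and feedback targets, 1 rose and 4 fell of 9 tested of 18 listed (median -0.46), with Ccnd1 (cyclin D1, -1.89, adjusted p = 0.00138), Tnfrsf19 (-0.94, adjusted p = 0.0241) and Kremen1 (-0.46, adjusted p = 0.00272) by name. Among genes of glutamine, ornithine and ammonia handling, 6 rose and 2 fell of 14 tested of 16 listed (median -0.03), with Slc1a5 (a glutamine transporter, 1.81, adjusted p = 0.000785), Slc38a4 (1.61, adjusted p = 0.0434) and Slc38a2 (an amino acid transporter, 1.17, adjusted p = 0.00696) by name. Gls2 stands on the periportal and the glutamine list, Hnf4a on the TCF and the hepatocyte list, and Rspo3, Wnt2 and Wnt9b on the ligand and the central vein list. Between the time-series WT libraries taken at ZT12 the sign turned for Wnt5b (0.11, adjusted p = 0.719) and Slc38a4 (-0.37, adjusted p = 0.455).

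Markers of other liver cells were read in the same libraries, since central vein endothelium is a source of Wnt. Its 6 markers (Wnt2, Wnt9b, Rspo3, Kit, Thbd and Cdh13) summed to 10.4, 12.5 and 17.3 CPM in controls and 17.9, 18.9 and 23.0 CPM in restricted livers. All 3 restricted livers were above all 3 controls, the most abundant marker was Rspo3 in controls and Thbd in restricted livers, none was at 0, and 2 of 6 rose (median 0.45), with Thbd (0.97, adjusted p = 0.00375) by name. The 6 sinusoidal endothelium markers summed to 116, 149 and 152 CPM in controls and 194, 194 and 222 CPM in restricted livers, without overlap. Of these, 4 of 6 rose (median 0.54), with Lyve1 (0.98, adjusted p = 0.00397), Stab2 (0.67, adjusted p = 0.0294) and Clec4g (0.66, adjusted p = 0.00322) by name. Of hepatocyte markers, 3 of 7 rose (median 0.24), with Alb (0.99, adjusted p = 0.000154), Hnf4a (0.69, adjusted p = 0.0109) and Trf (0.60, adjusted p = 0.00198) by name. Of Kupffer and myeloid cell markers, 1 of 8 fell (median 0.07), with Cd5l (-0.50, adjusted p = 0.0481) by name. Of stellate cell markers, 2 rose and 2 fell of 6 (median -0.02), with Col1a1 (-1.52, adjusted p = 0.0405), Col3a1 (-1.19, adjusted p = 0.0463) and Dcn (0.75, adjusted p = 0.00197) by name. Of cholangiocyte markers, 2 of 4 tested of 5 listed rose (median 0.78). Of lymphocyte markers, 1 of 3 tested of 6 listed fell (median -0.81). Of neutrophil markers, edgeR called 0 of 1 tested of 5 listed (unadjusted p below 0.05 in 0, 0 called in DESeq2, median -0.18). Of erythrocyte markers, 1 of 5 tested of 6 listed fell (median -0.77), with Alas2 (-2.89, adjusted p = 0.000129) by name. The sums of hepatocyte markers (92600 to 96880 beside 161400 to 170800 CPM, controls beside restricted livers) were higher in all restricted livers, and those of lymphocytes (6.90 to 8.66 beside 4.65 to 5.84) and neutrophils (1.78 to 2.11 beside 1.14 to 1.67) lower, while those of Kupffer and myeloid, stellate, bile duct and red cells overlapped. Among the 34 genes named from all lists, 26 kept the call whichever library was left out, and Fzd6, Pygo2, Tnfrsf19, Slc38a4, Stab2, Cd5l, Col1a1 and Col3a1 lost it without at least 1 library (highest adjusted p 0.138). The other alternatives, most often the time-series libraries, ended 9 of the 34 calls (highest adjusted p 0.719). The part of cell composition in the changes of the members was not tested.

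The corticosterone experiment asks which of the same genes differ after CORT in livers at ZT12. The Wnt feedback genes Axin2 and Rnf43 and the transcription factor Tbx3 fell, and the transporter Slc1a2 rose. That is 4 of 9 members called, beside 8.11% of the 11523 genes tested, with 1 higher beside 4.47% and 3 lower beside 3.64%. The median log2 fold change was -0.65 over the members and -0.01 over all genes tested. The calls rest on few libraries. With all libraries 935 genes were called. With 1 left out it was 421 genes and 0 members for control replicate 1, 206 and 0 for control replicate 2, and 438 and 1 for control replicate 3. For CORT replicates 1, 2 and 3 it was 446 genes and 4 members, 1008 and 2, and 395 and 1.

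Tbx3 stood at 19.2, 15.3 and 29.8 CPM in the 3 controls and 8.70, 3.58 and 5.17 CPM in the 3 CORT livers. Every CORT value was below every control value, and control replicate 3 was far above its mates. The log2 fold change was -1.89 (95% CI -2.74 to -1.03, adjusted p = 0.0251). The call ended without control replicate 1 (-1.96, adjusted p = 0.0654), control replicate 2 (-2.08, adjusted p = 0.0604), control replicate 3 (-1.57, adjusted p = 0.0699) or CORT replicate 3 (-1.81, adjusted p = 0.0866). Axin2 stood at 6.96, 7.27 and 6.73 CPM in controls and 4.08, 2.79 and 2.04 CPM under CORT, the controls close together and the CORT livers all lower. Of the single libraries, only CORT replicate 1 could be left out without loss of the Axin2 call, -1.24 (95% CI -1.86 to -0.62, adjusted p = 0.034). Without each of the other 5 the adjusted p lay between 0.066 and 0.122, and with the replicate number as a block it was 0.0622. Rnf43 stood at 24.0, 19.96 and 17.0 CPM in controls and 12.6, 6.44 and 7.89 CPM under CORT, again without overlap. Its log2 fold change of -1.18 (95% CI -1.79 to -0.57, adjusted p = 0.0369) likewise stayed called without CORT replicate 1 alone, and without each of the other 5 libraries the adjusted p lay between 0.0578 and 0.116. Slc1a2 moved the other way, from 147, 157 and 141 CPM in controls to 250.2, 226 and 213 CPM under CORT. All 3 CORT livers were above all controls (log2 fold change 0.63, 95% CI 0.41 to 0.86, adjusted p = 0.013), and the call ended without control replicate 1 (adjusted p = 0.0531) or control replicate 2 (0.0565). The adjusted p over all alternatives was 1.01e-05 to 0.0866 for Tbx3, 0.00424 to 0.122 for Axin2, 0.000909 to 0.116 for Rnf43 and 8.64e-07 to 0.0565 for Slc1a2.

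The enzymes did not pass the test. Oat had 961, 793 and 671 CPM in controls and 539, 576 and 415 CPM under CORT, all 3 lower, with a log2 fold change of -0.66 (95% CI -1.07 to -0.26, adjusted p = 0.0613). DESeq2 called it (-0.66, adjusted p = 0.00359). Over all alternatives the adjusted p lay at 0.00359 to 0.163 for Oat. Glul had 869.5, 969 and 889.9 CPM in controls and 1002, 944 and 833 CPM under CORT, which overlapped (log2 fold change 0.03, 95% CI -0.22 to 0.28, adjusted p = 0.909). Cyp1a2 had 578, 574 and 650.0 CPM in controls and 611, 287 and 428 CPM under CORT, with CORT replicate 1 among the controls (log2 fold change -0.44, 95% CI -1.03 to 0.14, adjusted p = 0.312). Cyp2e1 had 6286, 6480 and 4879 CPM in controls and 6768, 8338 and 6103 CPM under CORT, also with overlap (log2 fold change 0.27, 95% CI -0.12 to 0.65, adjusted p = 0.356). The receptor gene Lgr5 had 5.81, 8.64 and 2.47 CPM in controls and 4.31, 4.71 and 1.77 CPM under CORT, and its interval was the widest of the 9 (log2 fold change -0.65, 95% CI -1.85 to 0.55, adjusted p = 0.473). The diet and the corticosterone experiment used separate mice and separate control groups, and no test set their changes against each other: Axin2 rose in the former and fell in the latter, and Cyp1a2 and Glul were called in the former alone.

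The same lists were read under corticosterone. Of other pericentral genes, 2 of 20 rose (median -0.14), with Ahr (the receptor of dioxin-like ligands that drives Cyp1a genes, 1.79, adjusted p = 0.00754) and Por (the reductase that feeds electrons to cytochromes P450, 1.38, adjusted p = 0.02) by name. Of periportal genes, 3 rose and 2 fell of 20 (median -0.01), with Pck1 (2.62, adjusted p = 0.0124), Sds (serine dehydratase, 2.04, adjusted p = 0.00288) and Slc7a2 (a transporter of cationic amino acids, 1.95, adjusted p = 0.00307) by name. Among Wnt ligands and R-spondins, edgeR called 0 of 8 tested of 12 listed (unadjusted p below 0.05 in 3, 1 called in DESeq2, median -0.70). Of Wnt receptors, 2 rose and 2 fell of 10 tested of 12 listed (median -0.12), with Fzd7 (a Frizzled receptor, -2.11, adjusted p = 0.00185), Fzd8 (-1.04, adjusted p = 0.0368) and Lrp6 (a Wnt co-receptor, 0.89, adjusted p = 0.013) by name. In the beta-catenin complex, edgeR called 0 of 15 (unadjusted p below 0.05 in 3, 1 called in DESeq2, median 0.09). Of TCF factors and coactivators, 1 of 8 tested of 10 listed rose (median -0.16), with Hnf4a (0.84, adjusted p = 0.0229) by name. Hnf4a is not itself a TCF factor. Among Wnt inhibitors and feedback targets, edgeR called 0 of 7 tested of 18 listed (unadjusted p below 0.05 in 2, 0 called in DESeq2, median -0.19). Among genes of glutamine, ornithine and ammonia handling, 1 rose and 3 fell of 12 tested of 16 listed (median 0.07), with Slc38a2 (2.80, adjusted p = 0.000665), Slc1a4 (-1.88, adjusted p = 0.017) and Odc1 (ornithine decarboxylase, -0.57, adjusted p = 0.0166) by name. Central vein endothelium markers summed to 14.1, 13.7 and 16.9 CPM in controls and 12.3, 11.6 and 19.7 CPM under CORT, which overlapped, with Kit the most abundant in controls and Thbd under CORT and none at 0. Of these, edgeR called 0 of 6 (unadjusted p below 0.05 in 1, 1 called in DESeq2, median -0.52). Of hepatocyte markers, 2 of 7 rose (median 0.21), with Fgb (0.84, adjusted p = 0.0161) and Hnf4a (0.84, adjusted p = 0.0229) by name. For sinusoidal endothelium, 1 of 6 fell (median -0.28), with Kdr (-0.62, adjusted p = 0.0378) by name. For Kupffer and myeloid cells, 2 of 8 rose (median 0.47), with Marco (1.58, adjusted p = 0.0447) and Cd5l (0.77, adjusted p = 0.0185) by name. For stellate cells, 1 of 6 fell (median -0.02), with Lrat (-1.34, adjusted p = 0.0139) by name. For cholangiocytes, 1 of 4 tested of 5 listed fell (median 0.34), with Sox9 (-1.16, adjusted p = 0.0308) by name. For lymphocytes, edgeR called 0 of 1 tested of 6 listed (unadjusted p below 0.05 in 0, 0 called in DESeq2, median -0.04). For neutrophils, edgeR called 0 of 2 tested of 5 listed (unadjusted p below 0.05 in 1, 0 called in DESeq2, median 1.34). For erythrocytes, edgeR called 0 of 5 tested of 6 listed (unadjusted p below 0.05 in 5, 4 called in DESeq2, median -0.89). As sums in CPM, controls beside CORT livers, sinusoidal endothelium (94.97 to 120.3 beside 76.9 to 91.9) and erythrocytes (633 to 788 beside 299.5 to 562) were lower in all 3 CORT livers, and Kupffer and myeloid cells (70.1 to 92.7 beside 98.7 to 139) and neutrophils (0.932 to 1.85 beside 2.65 to 4.45) higher. The sums of the other lists overlapped. Of the 18 genes named from these lists, 5 (Ahr, Sds, Slc7a2, Fzd7 and Slc38a2) kept the call whichever library was left out, and for the others the adjusted p rose to 0.142 at most. The replicate block ended 4 of the calls (highest adjusted p 0.0928). The part of cell composition in these changes was not tested.

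The genotype comparison on cal. res. asks which members differ without hepatocyte GR under restriction, as 1 average difference between GRLKO and WT over the 6 time points. Glul, Axin2, Slc1a2 and Tbx3 were lower without GR. These 4 of 9 were called beside 30.0% of the 13041 genes tested, all 4 lower beside 15.7% of genes. edgeR called 0 members higher beside 14.3%, while in all 5 members had an unadjusted p below 0.05 and DESeq2 called 4. The median log2 fold change was -0.19 over the members and 0.00 over all genes tested.

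Glul ranged over 633 to 1293 CPM (median 1023) in the 18 WT libraries and 328 to 1019 CPM (median 732) in the 18 GRLKO libraries. At each of the 6 time points every GRLKO value was below every WT value, with the smallest ratio of means at ZT20 (0.525) and the largest at ZT8 (0.726). Its log2 fold change over the day was -0.61 (95% CI -0.75 to -0.48, adjusted p = 1.49e-08), lower in 18 of 18 GRLKO libraries against the WT mean of their time point. Slc1a2 ranged over 120 to 392 CPM (median 174) in WT and 63.5 to 229 CPM (median 128) in GRLKO. All 18 GRLKO libraries were below the WT mean of their time point, the groups did not overlap at 4 of 6 time points, and the gap was widest at ZT12. The log2 fold change was -0.55 (95% CI -0.73 to -0.37, adjusted p = 1.12e-05). Axin2 ranged over 6.41 to 16.9 CPM (median 10.5) in WT and 2.20 to 23.1 CPM (median 6.40) in GRLKO. GRLKO replicate 3 at ZT0, with 23.1 CPM, was the highest library of either genotype, while 17 of 18 GRLKO libraries were below their WT mean. The average change of Axin2 was -0.59 (95% CI -0.86 to -0.32, adjusted p = 0.000917). Glul, Slc1a2 and Axin2 kept their calls under all 16 alternatives, including each replicate number and each time point left out. Tbx3 ranged over 13.6 to 40.5 CPM (median 23.4) in WT and 9.73 to 40.9 CPM (median 19.1) in GRLKO, with 13 of 18 GRLKO libraries below their WT mean. Its average of -0.27 (95% CI -0.48 to -0.06, adjusted p = 0.0461) lost the call in 11 of 16 alternatives. These were WT replicate 1, 2 or 3 or GRLKO replicate 2 or 3 left out of every time point (adjusted p 0.0503 to 0.136), no filter on low counts (0.0616), the replicate block (0.072), and ZT0 (0.0779), ZT8 (0.135), ZT20 (0.07) or ZT16 left out (-0.16, adjusted p = 0.284). The adjusted p over all alternatives was 6.7e-18 to 2.32e-06 for Glul, 9.35e-09 to 0.000306 for Slc1a2, 0.00012 to 0.0143 for Axin2 and 0.0189 to 0.284 for Tbx3.

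The other 5 members were not called over the day on cal. res. Cyp1a2 ranged over 192 to 657 CPM (median 419) in WT and 189 to 524 CPM (median 365) in GRLKO, with 13 of 18 GRLKO libraries below their WT mean. Its average of -0.19 (95% CI -0.39 to 0.01, adjusted p = 0.148) was called without WT replicate 2 of each time point (-0.25, adjusted p = 0.0273). Oat ranged over 595 to 1490 CPM (median 1031) in WT and 718 to 1648 CPM (median 1117) in GRLKO, and Cyp2e1 over 5317 to 14690 CPM (median 6854) and 6089 to 10430 CPM (median 8070). For these enzymes the time points lay in opposite directions. Oat was lower in all GRLKO livers at ZT0 and higher in all at ZT20, its average was 0.21 (95% CI 0.00 to 0.41, adjusted p = 0.124), and without ZT0 it was called (0.34, adjusted p = 0.0131). Cyp2e1 was lower in all GRLKO livers at ZT12 and higher in all at ZT4 and ZT20, its average was 0.10 (95% CI -0.04 to 0.24, adjusted p = 0.296), and without ZT12 it was called (0.21, adjusted p = 0.0169). Lgr5 ranged over 3.48 to 12.8 CPM (median 8.60) in WT and 2.55 to 11.9 CPM (median 7.52) in GRLKO, 15 of 18 of them below their WT mean (log2 fold change -0.15, 95% CI -0.37 to 0.06, adjusted p = 0.284), and was called without ZT12 (-0.28, adjusted p = 0.0153). Rnf43 ranged over 13.2 to 51.9 CPM (median 30.9) in WT and 12.7 to 40.5 CPM (median 24.9) in GRLKO, 13 of 18 below their WT mean (log2 fold change -0.09, 95% CI -0.29 to 0.12, adjusted p = 0.554). Over all alternatives the adjusted p lay at 0.0273 to 0.633 for Cyp1a2, 0.0131 to 0.476 for Oat, 0.0169 to 0.657 for Cyp2e1 and 0.0153 to 0.734 for Lgr5.

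**Figure D2:**
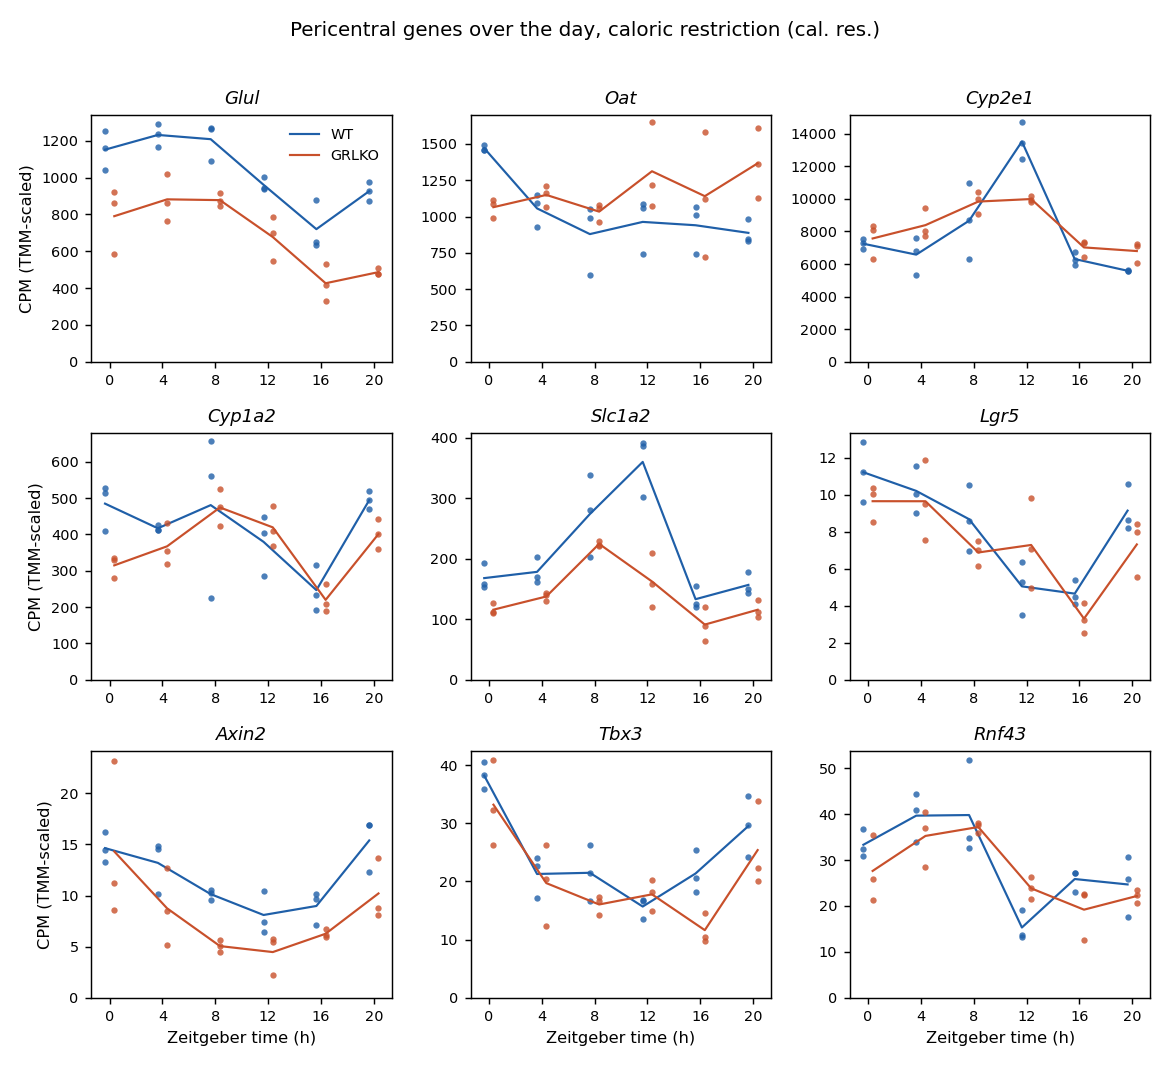
CPM of the 9 members (vertical axes, from 0) against Zeitgeber time in h on cal. res., with points for single mice, 3 per genotype and time point, and lines through group means, WT in blue and GRLKO in orange, set slightly apart along the axis. Glul lies lower in GRLKO at all 6 time points, and Slc1a2 reaches 359.7 CPM on average in WT at ZT12 against 162 CPM in GRLKO.

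The lists on cal. res. follow in the same form. Of other pericentral genes, 2 rose and 10 fell of 20 (median -0.22), with Avpr1a (-1.28, adjusted p = 1.47e-10), Gstm3 (a glutathione transferase, -1.02, adjusted p = 0.000182) and Gulo (an enzyme of vitamin C synthesis, -0.69, adjusted p = 4.82e-10) by name. Of periportal genes, 5 rose and 9 fell of 20 (median -0.02), with Asl (argininosuccinate lyase of the urea cycle, -0.74, adjusted p = 7.45e-10), Sdsl (-0.74, adjusted p = 4.87e-06) and Pck1 (-0.70, adjusted p = 0.00354) by name. Of Wnt ligands and R-spondins, 3 of 9 tested of 12 listed fell (median -0.16), with Porcn (-0.54, adjusted p = 8.82e-06) and Rspo3 (the R-spondin of central vein endothelium, -0.21, adjusted p = 0.0434) by name. Of Wnt receptors, 5 rose and 2 fell of 10 tested of 12 listed (median 0.14), with Fzd8 (0.57, adjusted p = 0.000252), Fzd6 (0.55, adjusted p = 0.0345) and Lrp5 (a Wnt co-receptor, -0.47, adjusted p = 1.93e-06) by name. In the beta-catenin complex, 1 rose and 2 fell of 15 (median -0.04), with Btrc (0.24, adjusted p = 0.000197), Dvl3 (-0.13, adjusted p = 0.0131) and Csnk1d (-0.10, adjusted p = 0.0089) by name. Of TCF factors and coactivators, 2 rose and 4 fell of 9 tested of 10 listed (median -0.03), with Tcf7 (-0.42, adjusted p = 0.00629), Bcl9 (0.38, adjusted p = 0.00218) and Tcf7l2 (-0.23, adjusted p = 0.00162) by name. Of Wnt inhibitors and feedback targets, 1 rose and 2 fell of 9 tested of 18 listed (median 0.11), with Notum (a secreted enzyme that inactivates Wnt, -0.46, adjusted p = 1.82e-05) and Kremen1 (0.11, adjusted p = 0.0247) by name. Among genes of glutamine, ornithine and ammonia handling, 2 rose and 3 fell of 13 tested of 16 listed (median 0.01), with Slc1a5 (-0.95, adjusted p = 0.000199), Slc38a2 (-0.66, adjusted p = 5.16e-08) and Prodh (proline dehydrogenase, -0.66, adjusted p = 1.47e-08) by name. Central vein endothelium markers summed to 12.7 to 30.5 CPM (median 18.9) in WT and 10.5 to 26.3 CPM (median 15.6) in GRLKO, with Rspo3 as the most abundant (5.05 and 4.36 CPM) and none at 0. Of these, 3 of 6 fell (median -0.26), with Rspo3 (-0.21, adjusted p = 0.0434) by name. These 3 called markers were lower, as were Glul, Slc1a2, Axin2 and Tbx3, and the part of central vein cells in that was not tested. Sinusoidal endothelium markers summed to 149 to 213 CPM (median 172) in WT and 168 to 237 CPM (median 204) in GRLKO. Of these, 4 of 6 rose (median 0.22), with Lyve1 (1.09, adjusted p = 1.88e-06), Kdr (0.25, adjusted p = 0.000276) and Cdh5 (0.22, adjusted p = 0.0119) by name. Of hepatocyte markers, 3 of 7 fell (median -0.12), with Apoa1 (-0.76, adjusted p = 2.98e-07), Alb (-0.21, adjusted p = 0.000169) and Hnf4a (-0.19, adjusted p = 0.00418) by name. For Kupffer and myeloid cells, edgeR called 0 of 8 (unadjusted p below 0.05 in 3, 0 called in DESeq2, median 0.27). For stellate cells, 1 of 6 rose (median 0.20), with Col3a1 (0.43, adjusted p = 0.0288) by name. For cholangiocytes, 1 of 4 tested of 5 listed rose (median 0.04), with Spp1 (0.28, adjusted p = 0.0402) by name. For lymphocytes, 1 of 4 tested of 6 listed rose (median 0.56). For neutrophils, 1 of 3 tested of 5 listed rose (median 0.40). For erythrocytes, 1 of 5 tested of 6 listed rose (median 0.23), with Alas2 (1.25, adjusted p = 7.01e-09) by name. The sums of erythrocyte markers ranged over 245 to 1237 CPM (median 394) in WT and 355 to 3844 CPM (median 461) in GRLKO. Of the 31 genes named here, 22 kept the call whichever replicate number was left out, and Pck1, Rspo3, Fzd6, Dvl3, Csnk1d, Kremen1, Cdh5, Col3a1 and Spp1 lost it in at least 1 case (highest adjusted p 0.236). The other alternatives, each time point left out among them, ended 9 of the calls (highest adjusted p 0.262).

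On ctrl. the same comparison gave 3 of 9 members called lower without GR, Slc1a2, Cyp1a2 and Glul, beside 17.6% of the 12834 genes tested and 8.10% called lower. edgeR called 0 of the 9 higher beside 9.50% of genes, and 3 members in all had an unadjusted p below 0.05 and 3 were called in DESeq2. The median log2 fold change was -0.14 over the members and 0.00 over all genes tested. Slc1a2 ranged over 85.9 to 312 CPM (median 182) in 22 WT libraries and 56.4 to 249 CPM (median 122) in 20 GRLKO libraries. All 20 GRLKO libraries were below the WT mean of their time point, and the groups did not overlap at 4 of 6 time points. Its log2 fold change was -0.62 (95% CI -0.81 to -0.43, adjusted p = 4.32e-06), called under all 18 alternatives. Cyp1a2 ranged over 208 to 849.6 CPM (median 529) in WT and 135 to 559 CPM (median 398) in GRLKO. GRLKO values were lower than the WT mean in 15 of 20 libraries, without overlap at ZT8 and ZT12, and the lowest library of all was GRLKO replicate 1 at ZT20. The log2 fold change was -0.38 (95% CI -0.58 to -0.17, adjusted p = 0.00621), and the call ended when ZT8 was left out (-0.32, adjusted p = 0.0733). Glul ranged over 355 to 1251 CPM (median 955) in WT and 327 to 1019 CPM (median 821) in GRLKO, with 16 of 20 GRLKO libraries below their WT mean and without overlap at ZT20 only. At ZT0, WT replicate 3 (355 CPM) lay far below its mates (927 and 852 CPM). The average of -0.26 (95% CI -0.45 to -0.07, adjusted p = 0.0447) lost the call in 14 of 18 alternatives: with each replicate number of either genotype but WT replicate 3 left out (adjusted p 0.0547 to 0.206), without ZT4, ZT8, ZT12 or ZT16 (adjusted p 0.0581 to 0.168), without ZT20 (-0.15, adjusted p = 0.241), with no filter on low counts (0.0641) and with the replicate block (0.12). Without ZT8, only Slc1a2 of the 9 members stayed called. The adjusted p over all alternatives was 1.7e-09 to 0.000282 for Slc1a2, 0.00117 to 0.0733 for Cyp1a2 and 0.00335 to 0.241 for Glul.

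Axin2 ranged over 4.15 to 13.0 CPM (median 9.05) in WT and 3.60 to 12.4 CPM (median 8.64) in GRLKO on ctrl., and its average difference was -0.03 (95% CI -0.24 to 0.19, adjusted p = 0.91). The time points lay apart: all 4 GRLKO livers were above all 4 WT livers at ZT12, and all 3 were below all 4 at ZT20. Tbx3 ranged over 13.5 to 53.3 CPM (median 31.0) in WT and 10.6 to 47.8 CPM (median 26.2) in GRLKO (log2 fold change -0.19, 95% CI -0.52 to 0.14, adjusted p = 0.481) and was called without ZT12 (-0.43, adjusted p = 0.0451). Rnf43 ranged over 13.6 to 44.9 CPM (median 26.2) in WT and 13.5 to 45.6 CPM (median 26.9) in GRLKO (log2 fold change -0.14, 95% CI -0.41 to 0.12, adjusted p = 0.532), with 14 of 20 GRLKO libraries below their WT mean. Lgr5 ranged over 2.48 to 11.9 CPM (median 7.18) in WT and 3.94 to 11.9 CPM (median 7.50) in GRLKO (log2 fold change 0.06, 95% CI -0.18 to 0.29, adjusted p = 0.815). Neither regulator was called. Oat ranged over 605 to 1598 CPM (median 993) in WT and 593 to 1688 CPM (median 1031) in GRLKO (log2 fold change 0.04, 95% CI -0.18 to 0.26, adjusted p = 0.869), and Cyp2e1 ranged over 2769 to 8906 CPM (median 6442) in WT and 2054 to 10150 CPM (median 6326) in GRLKO (log2 fold change 0.04, 95% CI -0.12 to 0.20, adjusted p = 0.823). The 95% intervals of these last 4 members lay within -0.41 and 0.29.

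**Figure D3:**
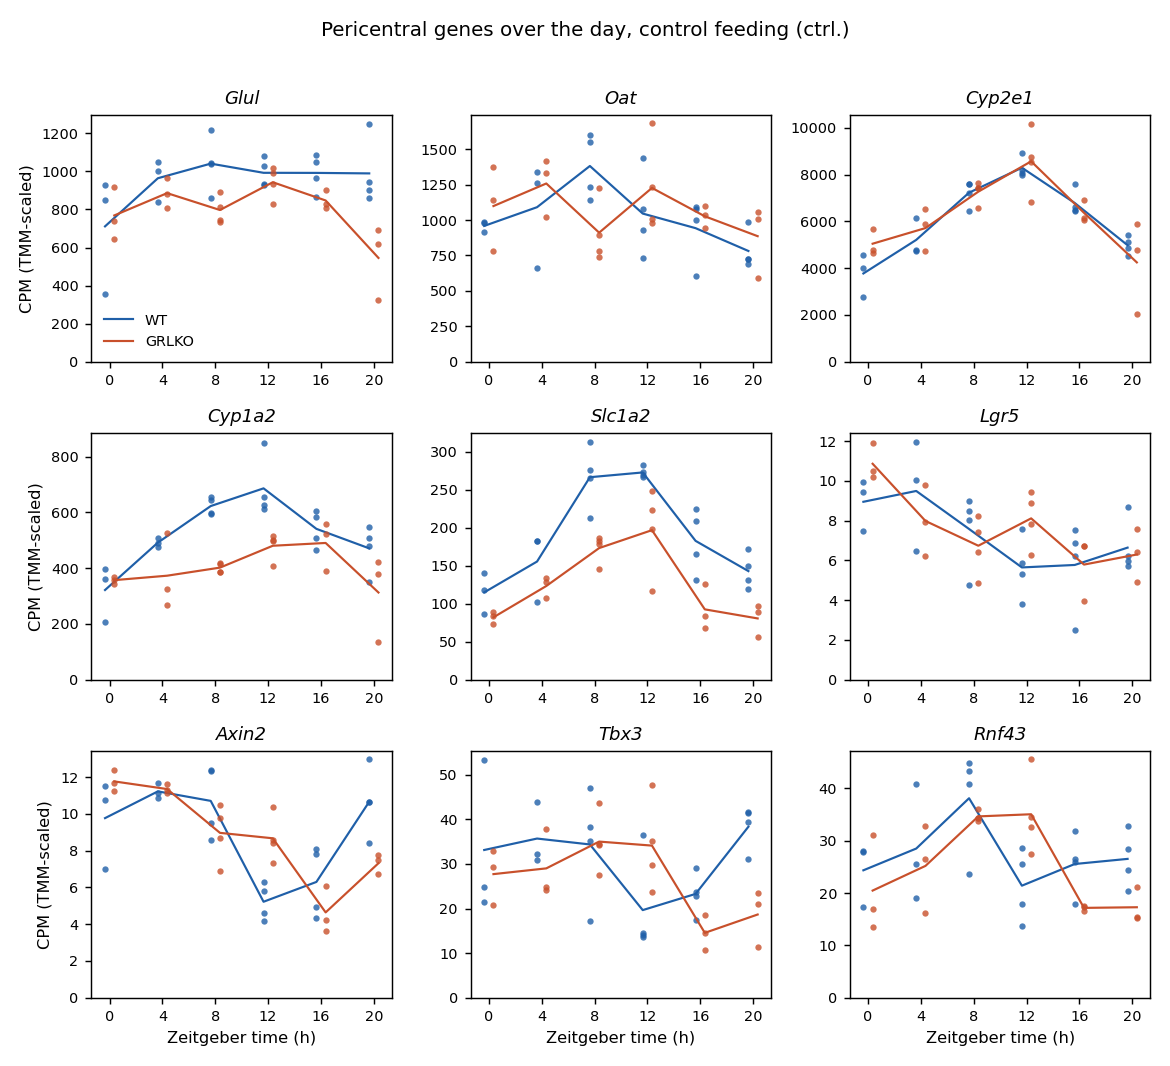
CPM of the 9 members (vertical axes, from 0) against Zeitgeber time in h on ctrl., with points for single mice, 3 or 4 per genotype and time point, and lines through group means, WT in blue and GRLKO in orange, set slightly apart along the axis. Slc1a2 lies lower on average in GRLKO at all 6 time points, with means of 197 against 273 CPM at ZT12.

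The lists on ctrl. follow. Of other pericentral genes, 3 rose and 4 fell of 20 (median -0.13), with Avpr1a (-1.10, adjusted p = 1.42e-13), Slc13a3 (a dicarboxylate transporter, -0.56, adjusted p = 0.000179) and Gstm3 (-0.53, adjusted p = 0.0234) by name. Among periportal genes, 1 rose and 8 fell of 20 (median -0.17), with Pck1 (-0.70, adjusted p = 0.0144) and Cdh1 (E-cadherin, -0.46, adjusted p = 0.00587) by name. Among Wnt ligands and R-spondins, 1 rose and 2 fell of 9 tested of 12 listed (median -0.01), with Rspo3 (-0.28, adjusted p = 0.00487) by name. Among Wnt receptors, 2 rose and 1 fell of 10 tested of 12 listed (median 0.12), with Fzd4 (0.37, adjusted p = 3.65e-06), Fzd7 (0.30, adjusted p = 0.0254) and Lrp5 (-0.18, adjusted p = 0.0212) by name. In the beta-catenin complex, 1 rose and 2 fell of 15 (median -0.04), with Dvl2 (a Dishevelled adaptor, 0.29, adjusted p = 0.000421), Apc (-0.15, adjusted p = 0.0309) and Dvl3 (-0.13, adjusted p = 0.0201) by name. Among TCF factors and coactivators, 1 rose and 3 fell of 8 tested of 10 listed (median -0.17), with Hnf4a (-0.23, adjusted p = 0.00024), Bcl9 (0.21, adjusted p = 0.00612) and Ctnnbip1 (-0.19, adjusted p = 0.027) by name. Among Wnt inhibitors and feedback targets, 1 rose and 3 fell of 9 tested of 18 listed (median -0.18), with Tnfrsf19 (0.45, adjusted p = 0.00237) and Notum (-0.24, adjusted p = 0.0165) by name. Among genes of glutamine, ornithine and ammonia handling, 1 rose and 3 fell of 13 tested of 16 listed (median 0.00), with Slc38a2 (-0.52, adjusted p = 0.000166), Prodh (-0.40, adjusted p = 0.00651) and Aldh4a1 (0.25, adjusted p = 3.35e-05) by name. Central vein endothelium markers summed to 7.98 to 20.5 CPM (median 14.9) in WT and 8.63 to 17.2 CPM (median 11.8) in GRLKO, with Rspo3 as the most abundant and none at 0. Of these, 1 of 6 fell (median -0.13), with Rspo3 (-0.28, adjusted p = 0.00487) by name. Their part in the differences of the members was not tested. Of hepatocyte markers, 4 of 7 fell (median -0.17), with Apoa1 (-0.52, adjusted p = 3.13e-10), Hnf4a (-0.23, adjusted p = 0.00024) and Alb (-0.20, adjusted p = 0.00694) by name. For erythrocytes, 1 of 5 tested of 6 listed rose (median 0.13), with Alas2 (0.56, adjusted p = 1.37e-10) by name. For sinusoidal endothelium, edgeR called 0 of 6 (unadjusted p below 0.05 in 1, 1 called in DESeq2, median -0.01). For Kupffer and myeloid cells, edgeR called 0 of 8 (unadjusted p below 0.05 in 0, 0 called in DESeq2, median -0.09). For stellate cells, edgeR called 0 of 6 (unadjusted p below 0.05 in 0, 0 called in DESeq2, median 0.00). For cholangiocytes, edgeR called 0 of 4 tested of 5 listed (unadjusted p below 0.05 in 1, 0 called in DESeq2, median -0.15). For lymphocytes, edgeR called 0 of 4 tested of 6 listed (unadjusted p below 0.05 in 0, 0 called in DESeq2, median 0.12). For neutrophils, edgeR called 0 of 2 tested of 5 listed (unadjusted p below 0.05 in 0, 0 called in DESeq2, median 0.30). Of the 23 genes named here, 13 kept the call whichever replicate number was left out, and Gstm3, Pck1, Fzd7, Lrp5, Apc, Dvl3, Bcl9, Ctnnbip1, Notum and Alb lost it in at least 1 case (highest adjusted p 0.226). The other alternatives, each time point left out among them, ended 9 of the calls (highest adjusted p 0.226).

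Whether the genotype difference itself depends on the diet was tested as the difference between the average genotype effect on cal. res. and that on ctrl., in which the library series drops out. Axin2 averaged 8.17 CPM in GRLKO and 11.7 CPM in WT on cal. res., and 8.79 CPM in GRLKO and 8.84 CPM in WT on ctrl. It was the only member called of 9, beside 3.01% of 13376 genes, with a log2 difference of -0.56 (95% CI -0.87 to -0.25, adjusted p = 0.0285). This call ended without replicate 1 or 2 of cal. res. WT, 2 or 3 of ctrl. WT, or 2 or 3 of ctrl. GRLKO, where the adjusted p lay between 0.0575 and 0.0756, while with any replicate number left out the difference stayed between -0.61 and -0.52. Glul had a larger average reduction on cal. res. than on ctrl., with a difference of -0.35 (95% CI -0.58 to -0.12, adjusted p = 0.0784), which passed the threshold in DESeq2 (-0.36, adjusted p = 0.038), without ctrl. WT replicate 1 (-0.42, adjusted p = 0.0356) and without ctrl. GRLKO replicate 1 (-0.40, adjusted p = 0.0356). Slc1a2, lower on both diets, had a difference of 0.07 (95% CI -0.19 to 0.32, adjusted p = 0.88). Cyp1a2, called on ctrl. and not on cal. res., had 0.17 (95% CI -0.12 to 0.45, adjusted p = 0.632), and Tbx3, called on cal. res. and not on ctrl., had -0.03 (95% CI -0.39 to 0.32, adjusted p = 0.989), so a difference between the diets was not shown for either. Over all alternatives the adjusted p lay at 0.0127 to 0.0756 for Axin2 and 0.0356 to 0.188 for Glul. The remaining 4 differences lay between -0.20 (Lgr5) and 0.15 (Oat). Over all genes, without ctrl. WT replicate 2, 240 genes were called in place of 403.

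At single time points, with 3 or 4 mice a group, each comparison asks at which time of day GRLKO and WT differ. On cal. res. edgeR called most members at ZT12, 4 of 9 beside 15.3% of genes: Slc1a2, Cyp2e1 and Glul lower and Rnf43 higher. DESeq2 called 4, 2, 2, 4, 2 and 4 members from ZT0 to ZT20. Its share of all genes at each time is not given here, so these counts do not rank the time points. Slc1a2 had 302, 386 and 392 CPM in WT and 119.7, 158 and 209 CPM in GRLKO (log2 fold change -1.15, 95% CI -1.64 to -0.67, adjusted p = 0.0119). Cyp2e1 had 5768, 6808 and 6218 CPM per kb in WT and 4608, 4725 and 4553 CPM per kb in GRLKO (log2 fold change -0.44, 95% CI -0.63 to -0.26, adjusted p = 0.0116). Neither overlapped, and both calls held whichever library was left out. Glul had 1005, 942 and 937 CPM in WT and 698, 549 and 785 CPM in GRLKO, all 3 lower (log2 fold change -0.51, 95% CI -0.83 to -0.19, adjusted p = 0.0449). Rnf43 had 19.0, 13.2 and 13.6 CPM in WT and 23.9, 21.4 and 26.3 CPM in GRLKO, all 3 higher (log2 fold change 0.64, 95% CI 0.26 to 1.01, adjusted p = 0.0377). Glul lost its call without any 1 library but GRLKO replicate 3 (adjusted p 0.0632 to 0.11), and Rnf43 without any but WT replicate 1 (0.0561 to 0.117). The replicate block ended both (adjusted p = 0.0822 for Glul and 0.0635 for Rnf43), and no filter on low counts that of Glul (0.058). The adjusted p over all alternatives was 9.81e-08 to 0.0489 for Slc1a2, 5.28e-06 to 0.0489 for Cyp2e1, 0.00222 to 0.11 for Glul and 0.00992 to 0.117 for Rnf43.

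At ZT20 on cal. res., Glul was the only member called of 9, beside 1.47% of genes, with 874, 928 and 979 CPM in WT and 476, 509 and 476 CPM in GRLKO. All 3 GRLKO livers were lower (log2 fold change -0.92, 95% CI -1.12 to -0.72, adjusted p = 0.00873), and the call ended without WT replicate 2 (adjusted p = 0.0541) or 3 (0.0665). At ZT8, Axin2 was the 1 member called beside 2.55%, with 10.3, 9.59 and 10.6 CPM in WT and 5.68, 5.01 and 4.46 CPM in GRLKO. All 3 were lower (log2 fold change -0.997, 95% CI -1.31 to -0.69, adjusted p = 0.013), a call lost without any 1 of the GRLKO libraries (adjusted p 0.0543 to 0.0649), with the replicate block (0.0573) or with the spread estimated in 1 fit of all libraries of the diet (0.0763). At ZT16, Tbx3 was the 1 member called beside 4.54%, with 18.2, 25.4 and 20.6 CPM in WT and 9.73, 10.5 and 14.6 CPM in GRLKO. All 3 were lower again (log2 fold change -0.87, 95% CI -1.31 to -0.44, adjusted p = 0.0446), a call lost without any library but GRLKO replicate 3 (adjusted p 0.0729 to 0.123) and with the replicate block (0.0839). At ZT0 and ZT4, edgeR called 0 of 9 members, beside 0.502% and 0.690% of genes. There 4 and 2 had an unadjusted p below 0.05, and DESeq2 called 4 and 2, counts given without the share of all genes. Oat at ZT0 shows the size of differences that did not pass in edgeR: 1461, 1489.9 and 1461 CPM in WT and 1116, 1088 and 989 CPM in GRLKO, all lower (-0.46, adjusted p = 0.0519). DESeq2 called Oat at ZT0 (-0.46, adjusted p = 1.4e-08). In edgeR it was called without GRLKO replicate 1 (-0.49, adjusted p = 0.0443) and with no filter on low counts (adjusted p = 0.0449). In edgeR, Glul was not called at ZT8 (-0.46, adjusted p = 0.0659) or ZT16 (-0.75, adjusted p = 0.0778). It passed at ZT8 without WT replicate 2 (-0.52, adjusted p = 0.0274), and at ZT16 with the replicate block (adjusted p = 0.0397) or in 1 fit of the diet (0.00251). With all libraries DESeq2 called Glul at ZT8 (-0.46, adjusted p = 5.15e-05) and ZT16 (-0.75, adjusted p = 0.000835). DESeq2 also called Glul at ZT0 (-0.54, adjusted p = 0.0223) and ZT4 (-0.48, adjusted p = 0.00277). Over all alternatives the adjusted p was 5.41e-24 to 0.0665 for Glul at ZT20, 8.81e-05 to 0.0763 for Axin2 at ZT8 and 0.00171 to 0.123 for Tbx3 at ZT16.

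On ctrl., ZT8 was the only time point with members called in edgeR, 2 of 9 beside 1.43% of genes. Cyp1a2 had 644, 599, 653 and 593 CPM in the 4 WT livers and 417, 387, 388 and 416 CPM in the 4 GRLKO livers. No GRLKO liver reached a WT liver, and the log2 fold change was -0.63 (95% CI -0.74 to -0.52, adjusted p = 0.000715), called whichever library was left out. Slc1a2 had 312, 275, 265 and 213 CPM in WT and 183, 187, 145 and 178 CPM in GRLKO, all lower (log2 fold change -0.62, 95% CI -0.88 to -0.36, adjusted p = 0.0368). This call held only without WT replicate 4 among the single libraries (otherwise adjusted p 0.072 to 0.104), and the replicate block ended it (0.096). When the spread was estimated from all 42 control libraries in 1 fit, neither was called at ZT8 (adjusted p = 0.325 for Cyp1a2 and 0.303 for Slc1a2), while that fit called Glul at ZT20 (-0.86, adjusted p = 0.0187), Slc1a2 at ZT16 (-0.98, adjusted p = 0.0129) and ZT20 (-0.83, adjusted p = 0.0453) and Axin2 at ZT12 (0.73, adjusted p = 0.0183). edgeR called 0 of 9 at ZT0, ZT4, ZT12, ZT16 and ZT20 when each was fitted alone, beside 0.536%, 0.195%, 2.08%, 1.98% and 0.420% of genes. At these times 1, 0, 6, 4 and 5 members had an unadjusted p below 0.05 and DESeq2, which called 4 at ZT8, called 0, 0, 2, 1 and 3. The share of all genes is not given here for either count, so these counts do not rank the time points. At ZT20 the groups of Tbx3 did not overlap, with 41.6, 31.1, 41.3 and 39.4 CPM in WT and 11.5, 20.9 and 23.5 CPM in GRLKO. Tbx3 was not called there in edgeR (-1.04, adjusted p = 0.144) but was in DESeq2 (-1.04, adjusted p = 0.00404). GRLKO replicate 1 at ZT20 on ctrl. had the lowest mean correlation with its group mates of all libraries (0.959, median 0.979). In edgeR, single libraries decided 4 further values: without WT replicate 1, Tbx3 was called higher at ZT12 (1.28, adjusted p = 0.0304) where all libraries gave 0.81, without WT replicate 4 Glul was called at ZT8 (-0.46, adjusted p = 0.0424), without GRLKO replicate 2 Oat was called at ZT8 (-0.77, adjusted p = 0.0366), and without WT replicate 3 Rnf43 was called at ZT16 (-0.71, adjusted p = 0.0207). DESeq2 called Glul (-0.39, adjusted p = 0.0127) and Oat (-0.60, adjusted p = 0.00902) at ZT8 with all libraries.

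Each of the 9 members also varied with the time of day in at least 1 group. On cal. res., JTK_CYCLE called a rhythm of 24 h for 6 of 9 members in WT, beside 27.8% of 18651 genes. In GRLKO it was 6 of 9 beside 25.6% of 18932. On ctrl. it was 5 of 9 in WT beside 32.2% of 18874, and 5 of 9 in GRLKO beside 28.2% of 18705. Unlike in edgeR, these genes were not filtered for low counts, so the shares include more genes of low level. The share among genes as abundant as the members was not counted. Slc1a2 and Axin2 were called in all 4 groups. Slc1a2 in WT ran from a mean of 133 CPM at ZT16 to 359.7 CPM at ZT12 on cal. res. (adjusted p = 0.0346) and from 115 CPM at ZT0 to 273 CPM at ZT12 on ctrl. (adjusted p = 0.00047). Axin2 was lowest in WT at ZT12, where Slc1a2 was highest, and ran from 8.10 CPM at ZT12 to 15.4 CPM at ZT20 on cal. res. (adjusted p = 0.0173) and from 5.22 CPM at ZT12 to 11.2 CPM at ZT4 on ctrl. (adjusted p = 0.0336). The other regulators were also lowest at ZT12 or ZT16 in WT on both diets. Lgr5 ran from 4.66 CPM at ZT16 to 11.2 CPM at ZT0 (adjusted p = 0.00808), Tbx3 from 15.7 CPM at ZT12 to 38.2 CPM at ZT0 (0.00361) and Rnf43 from 15.3 CPM at ZT12 to 39.8 CPM at ZT8 (0.0173) in WT on cal. res., where all 3 were called. In WT on ctrl. none of these 3 passed in JTK_CYCLE, with adjusted p of 0.0558 for Lgr5, 0.158 for Tbx3 and 1 for Rnf43, although Lgr5 passed in a limma fit of sine and cosine (0.013). Cyp2e1 peaked at ZT12 in all 4 groups, and in WT on cal. res. ran from 5587 CPM at ZT20 to 13520 CPM at ZT12. It was called in GRLKO on cal. res. (adjusted p = 0.00403), in WT on ctrl. from 3773 CPM at ZT0 to 8290 CPM at ZT12 (6.94e-07) and in GRLKO on ctrl. (0.00073), and in WT on cal. res. (0.0978) in the limma fit alone (0.0118). Glul was called on cal. res. alone, running from 720.3 CPM at ZT16 to 1232 CPM at ZT4 in WT (adjusted p = 0.000574) and from 426 CPM at ZT16 to 882 CPM at ZT4 in GRLKO (adjusted p = 0.00681). In GRLKO on cal. res. the further calls were Slc1a2 from 91.0 CPM at ZT16 to 224 CPM at ZT8 (0.00535), Axin2 from 4.46 CPM at ZT12 to 14.3 CPM at ZT0 (0.0089), Rnf43 from 19.2 CPM at ZT16 to 37.2 CPM at ZT8 (0.0187) and Lgr5 from 3.30 CPM at ZT16 to 9.66 CPM at ZT0 (0.03). Tbx3 (0.0851) passed there in the limma fit alone (0.0163). Cyp1a2, from 322 CPM at ZT0 to 686 CPM at ZT12 (adjusted p = 0.000152), and Oat, from 782 CPM at ZT20 to 1382 CPM at ZT8 (0.0254), were called in WT on ctrl. alone. In GRLKO on ctrl. the further calls were Slc1a2 from 80.7 CPM at ZT20 to 197 CPM at ZT12 (0.00877), Axin2 from 4.64 CPM at ZT16 to 11.8 CPM at ZT0 (0.00161), Tbx3 from 14.5 CPM at ZT16 to 35.0 CPM at ZT8 (0.0302) and Rnf43 from 17.2 CPM at ZT16 to 35.0 CPM at ZT12 (0.00439).

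Many of the rhythm calls, though not all, ended when a replicate number was left out. In WT on cal. res. the calls left were Glul and Tbx3 without replicate 1 of each time point, Glul without replicate 2 and Glul and Lgr5 without replicate 3, and in GRLKO 1 call was left each time, Cyp2e1 without replicate 1, Slc1a2 without replicate 2 and Glul without replicate 3. In WT on ctrl. the calls of Cyp2e1, Cyp1a2 and Slc1a2 held without each replicate number, those of Oat and Axin2 ended without replicate 1, 2 or 3, and Lgr5 was called without replicate 3 (adjusted p = 0.0439). In GRLKO on ctrl., Cyp2e1 and Axin2 held, Tbx3 ended without replicate 1, 2 or 3, Slc1a2 without 1 or 3, and Rnf43 without 3. A rhythm called in 1 genotype and not in the other does not show a difference, so the difference was tested with limma. It was called for 0 of 9 members on cal. res. beside 0.652% of genes and for 0 of 9 on ctrl. beside 0.366%. On cal. res. 0 members had an unadjusted p below 0.05, and on ctrl. 2 had, Tbx3 (adjusted p = 0.25) and Rnf43 (0.45), and the same test on log2 CPM also called 0 on each diet.

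How the members vary together was described by Pearson correlations of log2 CPM over the 12 group means of each diet, which share the time of day and the genotype, so no p is given. Axin2 and Tbx3 followed each other on both diets (r = 0.79 on cal. res. and 0.839 on ctrl.), and among 12624 genes Axin2 was the gene most like Tbx3. Cyp1a2 had an r of 0.626 with Glul on cal. res. and 0.873 on ctrl., and of 0.544 and 0.81 with Slc1a2. Cyp2e1 and Axin2 had an r of -0.59 on cal. res. and -0.343 on ctrl. The genes most like each member, by the smaller of its correlations on the diets, are given with r on cal. res. and on ctrl. For Rnf43 they were Sp5 (0.859 and 0.903) and Mapk6 (0.821 and 0.855). For Tbx3 they were Axin2 (0.79 and 0.839) and Tmem8b (0.738 and 0.733), for Axin2 Fbxo6 (0.872 and 0.86) and Abcb11 (0.857 and 0.855), and for Lgr5 Hcfc1 (0.903 and 0.862) and Tulp2 (0.804 and 0.825). The enzymes gave Sharpin (0.896 and 0.859) and Aldh16a1 (0.929 and 0.84) for Glul, Lhpp (0.645 and 0.855) and Agmat (0.613 and 0.721) for Oat, Cox7a2l (0.933 and 0.933) and Eci2 (0.925 and 0.966) for Cyp2e1 and Hspb6 (0.846 and 0.848) and Nfix (0.815 and 0.849) for Cyp1a2. For Slc1a2 they were Phf14 (0.928 and 0.93) and Inpp4a (0.932 and 0.925).

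The promoters of the members were read for the letters that TCF factors and GR are known to bind. The RefSeq promoter table (GRCm38.p6, 300 bases a promoter) held 8 promoters for 7 of the members among 32841, and those of Lgr5, Tbx3 and Rhbg were not used here. The forms of the TCF/LEF motif searched on both strands were CTTTGAA (5.13% of all promoters), CTTTGAT (3.73%), CTTTGTT (5.85%) and CTTTGTA (3.63%). At least 1 of them occurred in the promoters of Cyp1a2, Cyp2e1 and Slc1a2, and in 16.9% of all promoters. The letters ACANNNTGT, the core of the GR motif, which reads the same on either strand, occurred in those of Glul and Slc1a2, and in 6.85% of all promoters. No motif overlapped another in the members. The promoters of Slc1a2 and Glul are shown because both genes were called lower over the day in GRLKO on both diets, 5′ to 3′ with the motifs in capitals. Most alternatives ended the Glul call on ctrl., and these are also the members with the GR core. The Slc1a2 promoter lies within the gene, whose GENCODE start is chr2:102658659. It is thus not the promoter of that first start, which was not searched here. In Slc1a2 the first capitals are CTTTGAT read from the other strand and the second the GR core, and in Glul the capitals are the GR core. A match of letters is a description and does not show binding.
Slc1a2, chr2:102706188-102706487, plus strand: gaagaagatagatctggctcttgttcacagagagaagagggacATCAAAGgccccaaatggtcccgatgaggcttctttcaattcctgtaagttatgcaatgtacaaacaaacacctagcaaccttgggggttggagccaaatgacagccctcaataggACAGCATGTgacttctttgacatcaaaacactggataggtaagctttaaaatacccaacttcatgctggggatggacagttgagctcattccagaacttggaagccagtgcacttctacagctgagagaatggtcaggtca
Glul, chr1:153899679-153899978, plus strand: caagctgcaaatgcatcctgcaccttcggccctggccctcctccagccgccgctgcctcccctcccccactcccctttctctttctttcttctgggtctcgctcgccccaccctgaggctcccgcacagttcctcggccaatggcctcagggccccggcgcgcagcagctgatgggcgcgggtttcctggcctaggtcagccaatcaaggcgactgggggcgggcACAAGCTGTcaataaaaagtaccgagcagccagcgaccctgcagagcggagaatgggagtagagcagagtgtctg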

How the data were processed

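RNA of 90 livers was measured. The authors checked reads with FastQC 0.11.9 and MultiQC 1.12, quantified them with Salmon 1.8.0 on mm10 and used tximport 1.18.0. The deposited values are estimated counts of each gene, which the authors had not normalized. They were rounded here. Levels are CPM with TMM factors. Comparisons used edgeR 4.0.16 (quasi-likelihood F test, TMM, filterByExpr with a count minimum of 10, Benjamini-Hochberg adjustment over all genes tested, threshold 0.05) in R 4.3.3. Rhythms used JTK_CYCLE (exact null, 24 h, 6 phases) on DESeq2 1.42.0 VST values, and their difference limma 3.58.1 with sine and cosine. Effects over the day take the time point as a factor. Alternatives were DESeq2, RLE factors, no filter, each replicate number left out, the replicate number as a block and, where they apply, other libraries, scales or 1 fit of a diet. The tests were tested on simulated data.

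Whether the same replicate number marks paired mice was checked by correlating the deviations of same-numbered libraries from their group means. The correlations were -0.109 to 0.209 in the diet experiment, -0.00689 to 0.104 in the corticosterone experiment, -0.155 to 0.0935 on cal. res. and -0.114 to 0.148 on ctrl. As not all were over 0.1, libraries were treated as unpaired.

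The members and the lists were chosen with earlier results of these data known. All members with a row are named, and Nr3c1. From each list the up to 3 called genes with the largest absolute log2 fold change and at least 5 CPM in 1 group mean are named, and called genes under that floor are counted and not named. 1 result of this rule is not reported here. For likeness, the 2 genes with the highest value of the smaller correlation are named. A table of transformed values of the corticosterone experiment was not used here.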

Additional observations from a re-analysis of the deposited data

Results flagged for a closer look

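In groups of 4 libraries, a library was noted when its gap to the nearest of the others, as a share of the range of the group, was above Dixon's critical value at the 95% level. Chance gives this in about 1 in 20 groups. It was found in 3 of 54 cases, 6 groups by 9 members, all on ctrl. Cyp1a2 in GRLKO at ZT12 was 407 CPM in replicate 3 beside 498, 501 and 516 CPM. Tbx3 in WT at ZT12 was 36.5 CPM in replicate 1 beside 13.5, 14.0 and 14.5 CPM. Oat in WT at ZT20 was 983 CPM in replicate 4 beside 692, 725 and 728 CPM. Each is another mouse and another gene, and all stayed in the fits.

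For Axin2 the average genotype effect on cal. res. minus that on ctrl. was -0.56 on the log2 scale, which was tested and called. For Oat, Cyp2e1, Rnf43 and Axin2, all GRLKO mice of a time point lay on 1 side of all WT mice, and at another time point or on the other diet on the other side. GRLKO was tested against WT at each time point alone, and the contrast between single time points, or between diets at ZT12, was not tested. On cal. res. the ratio of GRLKO to WT means of Oat was 0.724 at ZT0 and 1.54 at ZT20. For Cyp2e1 it was 0.739 at ZT12, 1.28 at ZT4 and 1.22 at ZT20. For Rnf43 it was 1.56 at ZT12 and 0.742 at ZT16. For Axin2 on ctrl. it was 1.66 at ZT12 and 0.686 at ZT20, and on cal. res. 0.551 at ZT12.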

How the results depend on the processing

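Over the day, the genotype effect gave 4 members and 3912 genes on cal. res. and 3 members and 2258 genes on ctrl. These counts stayed within 1.5 times under DESeq2 (4 and 4061 on cal. res., 3 and 2397 on ctrl.), RLE factors, no filter on low counts, each replicate number left out and each time point left out, a choice made after seeing the data. The exception was ctrl. without ZT8, with 1 member. The diet effect (3 members, 6155 genes) gave 4 and 6012 in DESeq2, and was within 1.5 times with any library left out. In the time-series WT libraries taken at ZT12 the direction turned for Cyp2e1 (0.69), Slc1a2 (0.39), Wnt5b (0.11) and Slc38a4 (-0.37), and for Tbx3 (-0.33) and Lgr5 (-0.17), which were called in neither set. The cause was not tested.

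Each library mattered more elsewhere. With 1 left out, the corticosterone effect (4 members, 935 genes) gave 0 to 4 members and 206 to 1008 genes, and with all libraries DESeq2 gave 5 and 1300. Summed over the 6 time points, the genotype effect gave 7 member calls and 2966 gene calls on cal. res. and 2 and 772 on ctrl. With a replicate number left out these were 3 to 5 and 1394 to 1923 on cal. res. and 1 to 3 and 318 to 638 on ctrl. DESeq2 gave 18 and 5252 on cal. res. and 10 and 2471 on ctrl., and 1 fit of all libraries of a diet gave 6208 gene calls on cal. res. and 4 member and 2107 gene calls on ctrl. Replicates 1 to 3 only gave 459 gene calls on ctrl. The genotype by diet interaction (1 member, 403 genes) gave 0 to 2 members and 240 to 420 genes with a replicate number left out, and 2 and 551 in DESeq2. The cause of these differences was not tested.

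With a replicate number left out, rhythms on cal. res. were called for 1 to 2 members in place of 6 and 1657 to 1895 genes in place of 5179 in WT, and for 1 member in place of 6 and 987 to 1727 genes in place of 4840 in GRLKO. On ctrl. they were called for 3 to 5 members in place of 5 and 3677 to 4831 genes in place of 6080 in WT, and for 2 to 5 members in place of 5 and 2079 to 4747 genes in place of 5279 in GRLKO. These fits hold fewer samples. The rhythm difference between genotypes was called for 5 to 21 genes in place of 85 on cal. res. and 5 to 38 in place of 47 on ctrl. JTK_CYCLE on log2 CPM kept every member call. CPM without TMM factors moved 8 of the 126 ratios of group means by more than the spread between mice.

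With the replicate number as a replicate block, the calls were 5 members and 5686 genes for the diet, 3 and 534 for corticosterone, and, over the day, 3 and 3466 on cal. res. and 2 and 1933 on ctrl. At single time points they were 4 and 1425 on cal. res. and 1 and 187 on ctrl., for the interaction 1 and 128, and for the rhythm difference 0 members and 159 or 23 genes. Limits are these. Groups hold 3 or 4 mice, so a difference that was not called may exist. In groups of this size unchanged genes can lie without overlap too. The share of all genes that do was not counted, so a lack of overlap is a description. Depth may limit genes of low level, such as Lgr5 and Axin2, which was not tested. Bulk RNA of whole liver does not show where in the lobule a gene is expressed, and neither protein nor binding of GR was analysed here. The time-series diets differ in library series. Replicate numbers left out lower the number of samples too.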
